A study of Mus musculus with 8 samples.

Results

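Met, Prlr and Il11ra1 encode receptors through which hormones and growth factors act on liver cells. The 3 genes were taken by name from the 55416 rows of the deposited count table. They were measured by poly-A RNA sequencing in the livers of 8 mice, 4 of genotype Sost-/- and 4 of genotype SostPB/-, all on the MCD diet, with 1 library per mouse the replicates being labelled biological. The protein made from Sost is sclerostin, which is secreted and inhibits Wnt signalling, and the series concerns its overexpression in steatohepatitis. What PB means and which genotype overexpresses Sost are not in the labels, nor are age, sex or batch. Both names carry a - allele of Sost, so no wild-type liver and no liver on another diet entered the comparison. MCD is the usual short form for methionine- and choline-deficient, a diet that brings on fat accumulation and inflammation in the liver. A number after a genotype, as in Sost-/- liver 3, is the replicate number.

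Met is the receptor tyrosine kinase for hepatocyte growth factor, a ligand made largely by stellate and other mesenchymal cells of the liver. It signals through adaptors to the MAP kinase and PI3 kinase pathways and is known for its part in hepatocyte survival and liver regeneration. Prlr, the prolactin receptor, is a class I cytokine receptor that signals through JAK2 and STAT5. In rodent liver its level is known to depend on sex hormones, and it is made in long and short forms. Il11ra1 is the ligand-binding alpha subunit for interleukin 11, a cytokine linked to fibrosis, and it signals together with the shared subunit gp130, encoded by Il6st.

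A row of this table cannot always be read by its gene name. Names were found to fit the counts on 3 stretches of the genome (1439 rows, 565 of them protein coding) and on the mitochondrial genome, and all 3 receptor genes lie on these stretches. Met lies at chr6:17463800-17573980 on the plus strand of GRCm38, with 7.679 kb of exon in 22 blocks. Prlr lies at chr15:10177238-10349180 on the plus strand, with 15.34 kb of exon in 16 blocks, and Il11ra1 at chr4:41699989-41769474 on the plus strand, with 4.471 kb in 12 blocks. The genes that complete these pathways mostly lie elsewhere. Of 20 Met pathway genes, from Hgf to the adaptors Gab1 and Grb2, only Met itself has a row on the stretches, and of 14 prolactin pathway genes only Prlr does. Of 16 genes around interleukin 11, Il11ra1 and Cntfr do. The rows named Hgf, Prl, Il11, Il6st, Jak2 and Stat3, like the row named Sost, were not read here, so the level of the altered gene is not analysed.

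How well the names hold was also checked around each receptor. The exons of the 201 rows around Met were moved along the genome. Log counts were correlated with the log of the bases overlapping any exon of protein-coding genes, a description across rows. The correlation was 0.625 at the annotated place and 0.626 at the best shift, -10 bp. Around Prlr (193 rows) it was 0.659, and 0.701 at a best shift of -320 bp. Around Il11ra1 (201 rows) it was 0.621, and 0.689 at a best shift of 6500 bp. Of 6393 shifts tried, 4 gave a higher correlation than the annotated place around Met, and 161 did around Prlr and 161 around Il11ra1. By this count the rows around Prlr and Il11ra1 fit their names less closely than those around Met, although r at the annotated place was highest around Prlr. The count describes the surrounding rows and not the receptor rows alone. These rows were taken along the whole chromosome and were not held to the stretches. Those around Prlr ran from the chromosome's first row, so rows outside its stretch, where names were not read, could enter. Shifts were also tried more densely near the annotated place than far from it. The counts of protein-coding neighbours within 250 kb were examined as well. All 4 neighbours of Met had a mean of at least 100 counts, among them Capza2, an actin capping protein (3968 counts), and the caveolin genes Cav1 (121) and Cav2 (161). Around Prlr 4 of 7 did, led by the mitochondrial aminotransferase gene Agxt2 (2158), an abundant liver transcript, and 2 were at 0. Around Il11ra1 10 of 17 did, among them the galactose enzyme gene Galt (1709), and 5 had a mean under 10 counts.

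**Figure D1:**
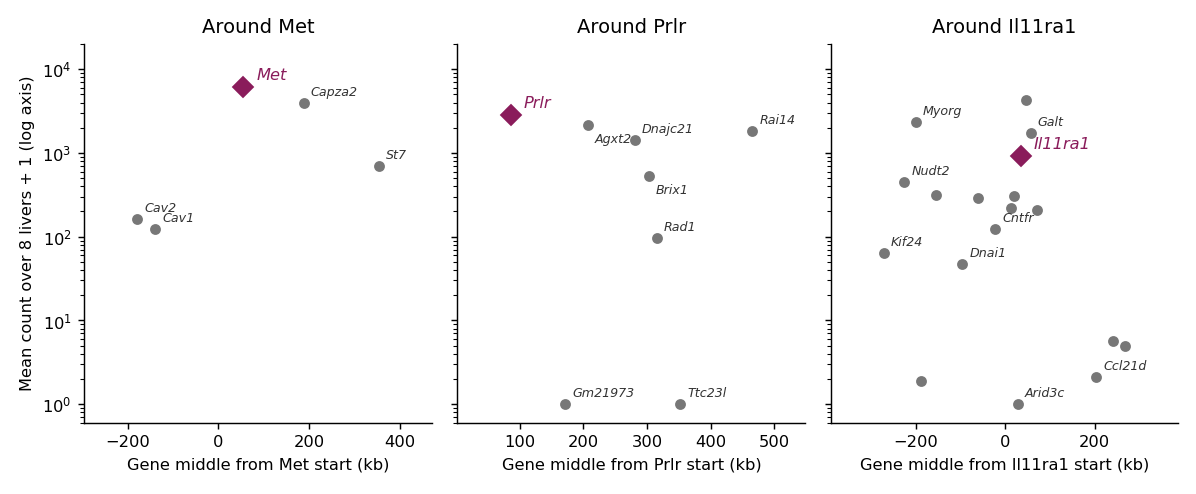
Mean count plus 1 over the 8 livers (log axis) of each receptor gene (diamond) and of the protein-coding genes within 250 kb (circles), against the distance in kb of the gene's middle from the start of the receptor gene. Met, with a mean of 6045 counts, stands above its 4 neighbours, while 5 of the 17 genes around Il11ra1 had a mean under 10 counts.

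Il11ra1 has near-identical copies on the same chromosome, so part of its reads could have been assigned to another row. The coding sequences of Il11ra2 and of Gm13305, each 1299 bases long, differ from that of Il11ra1 at 13 bases, an identity of 99.0%. Of the 50-base words in the protein-coding transcripts of Il11ra1, 40.0% also occur in those of Gm13305 and 29.6% in those of Il11ra2. The share over all annotated exons of Il11ra1 was not computed. The stretch below, coding bases 943 to 1062, is shown because it holds 4 of the differences, in capitals. It is read from GRCm38 5′ to 3′ on the coding strand, and spans an intron that is left out: chr4:41767592-41768055 (plus) for Il11ra1, chr4:42657428-42657892 (minus) for Il11ra2 and chr4:42160269-42160733 (minus) for Gm13305. In this stretch the 2 copies have the same sequence.
Il11ra1: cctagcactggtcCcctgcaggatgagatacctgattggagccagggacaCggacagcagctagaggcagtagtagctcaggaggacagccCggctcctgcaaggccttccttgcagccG
Il11ra2: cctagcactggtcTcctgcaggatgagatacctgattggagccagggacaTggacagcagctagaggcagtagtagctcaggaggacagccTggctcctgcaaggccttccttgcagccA
Gm13305: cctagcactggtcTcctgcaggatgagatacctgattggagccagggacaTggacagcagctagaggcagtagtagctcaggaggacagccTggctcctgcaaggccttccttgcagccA

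The copies received few reads. Il11ra2 had 14, 7, 4 and 16 counts in Sost-/- livers 1 to 4 and 5, 26, 21 and 18 in SostPB/- livers 1 to 4. Gm13305 had 10, 4, 7 and 9 counts against 10, 20, 7 and 8. Il11ra1 itself had between 550 and 1221, so the copies held a small part of the reads assigned to the 3 rows, and no source used here says how shared reads were divided. Other overlaps were small. Prlr shares 203 exon bases (1.32% of its exons) with Gm21973, a row at 0 counts, and Il11ra1 shares 8 bases (0.179%) with Ccl27a, a gene on the other strand. The Il11ra1 gene span also covers Rpp25l, Dctn3, Arid3c and Galt, none of which shares an exon base with it.

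Levels are given as CPM, a row's counts scaled to a common library size, on library totals scaled by edgeR's TMM factors. Met was measured at 618, 549.8, 337 and 548 CPM in Sost-/- livers 1 to 4, from 8202, 6327, 3986 and 6369 counts. In SostPB/- livers 1 to 4 it was at 465, 618, 629 and 518 CPM, from 4565, 8341, 5403 and 5167 counts. Sost-/- liver 3 was the lowest of all 8, and the other 7 livers of the 2 genotypes were interleaved, so the groups overlapped. Means were 513 ± 122 CPM for Sost-/- and 557 ± 79.2 CPM for SostPB/- (SD, n = 4 each), a log2 fold change of 0.12 (SE 0.20), or 1.09-fold with a 95% interval of 0.8 to 1.47. The difference did not pass (edgeR quasi-likelihood test, Benjamini-Hochberg adjusted p = 0.981, and an exact two-sided permutation test of the CPM values gave p = 0.686). Its direction rested on 1 liver: without Sost-/- liver 3 the log2 fold change was -0.04.

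Prlr was measured at 233, 330.1, 153 and 205 CPM in Sost-/- livers 1 to 4, from 3093, 3799, 1808 and 2387 counts. The SostPB/- livers had 190.4, 325, 290.0 and 279 CPM, from 1871, 4390, 2493 and 2778 counts. The highest and the lowest level of all 8 were both in Sost-/- livers, numbers 2 and 3, so the range of SostPB/- lay wholly inside that of Sost-/-. Means were 230.4 ± 74.3 CPM and 271 ± 57.3 CPM (SD, n = 4 each). The log2 fold change was 0.23 (SE 0.24), or 1.18-fold with a 95% interval of 0.809 to 1.71, and did not pass (edgeR adjusted p = 0.964, exact two-sided permutation p = 0.457). Single livers moved it by more than 1.5 times. It was 0.46 without Sost-/- liver 2, 0.37 without SostPB/- liver 1, 0.14 without SostPB/- liver 2 and 0.08 without Sost-/- liver 3, and none of these passed.

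Il11ra1 was measured at 86.7, 90.3, 103 and 78.6 CPM in Sost-/- livers 1 to 4, from 1150, 1039, 1221 and 913 counts. In SostPB/- livers 1 to 4 it was at 95.3, 74.8, 64.0 and 55.9 CPM, from 937, 1011, 550 and 557 counts. SostPB/- livers 2, 3 and 4 lay below every Sost-/- liver, and SostPB/- liver 1 lay above all of them but number 3. Mean levels were 89.7 ± 10.3 CPM for Sost-/- and 72.5 ± 17.1 CPM for SostPB/- (SD, n = 4 each). The log2 fold change was -0.31 (SE 0.19), or 0.808-fold with a 95% interval of 0.607 to 1.08, and did not pass (edgeR unadjusted p = 0.129, adjusted p = 0.907, exact two-sided permutation p = 0.171). Without SostPB/- liver 1 it was -0.47, with an unadjusted p of 0.0227 and an adjusted p of 0.608 in edgeR, and without SostPB/- liver 4 it was -0.20. With the counts of both copies added to Il11ra1 it was -0.28 (SE 0.18, edgeR adjusted p = 0.924).

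**Figure D2:**
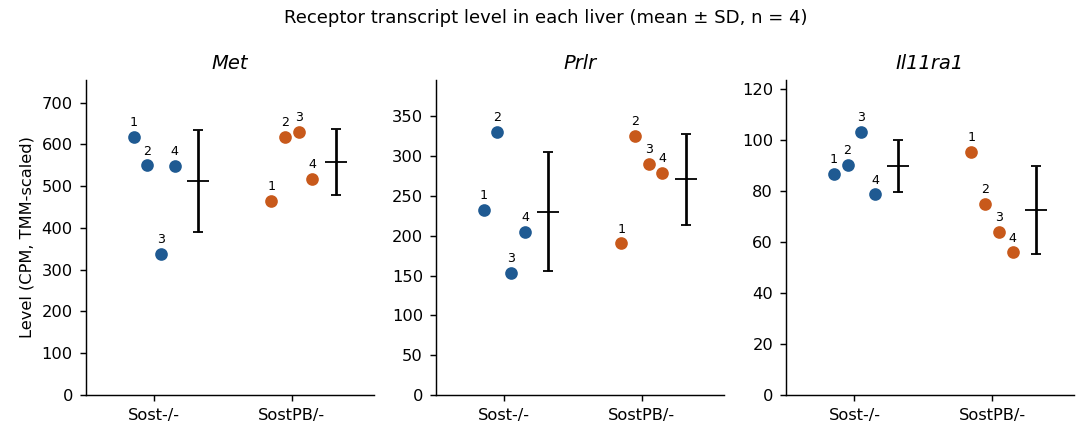
Level in CPM (TMM-scaled) of Met, Prlr and Il11ra1 in each liver, numbered by replicate, with the mean and SD of 4 livers beside each group. The genotypes overlap in all 3 panels, and 3 of the 4 SostPB/- livers lie below the Sost-/- livers in Il11ra1.

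None of the 3 receptors thus passed the test, beside 0 of 10020 rows in the whole table (0%). At an unadjusted edgeR p under 0.05 there were 646 rows (6.45%), and 8.24% of those on the stretches, of which none was a receptor described here. DESeq2 called 53 of 12666 rows (0.418%) and limma-voom called 1 of 10020 (0.00998%), and neither called 1 of the 3. The groups did not overlap in 393 rows (3.92%) of the table, with SostPB/- lower in 2.19% and higher in 1.74%, nor in 19 of 461 rows (4.12%) on the stretches, while they did in each of the 3 receptors. The intervals above leave room for a Met level up to 1.47 times, a Prlr level up to 1.71 times or an Il11ra1 level down to 0.607 times that of Sost-/-. A p that misses the threshold does not show that the genotypes have equal levels. In bulk liver RNA, fewer cells of a type and less RNA per cell cannot be told apart, and the p-values measure the spread between these 8 mice. The smallest p an exact test of 4 against 4 can give is 0.0286.

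Variation of the receptors between livers was set beside that of other rows. The coefficient of variation was 23.8% for Met in Sost-/- and 14.2% in SostPB/-. It was 32.2% and 21.1% for Prlr. For Il11ra1 the order was the other way, 11.5% and 23.6%. Beyond counting error, edgeR put the variation between mice of 1 genotype at 23.5%, 27.1% and 21.9%, from dispersions of 0.0553, 0.0735 and 0.0478. The median was 0.0622 over the 461 tested rows on the stretches and 0.124 over all 10020 rows, of any abundance. Each dispersion is drawn by edgeR toward those of rows of like abundance, so closeness to a median is partly built in. The lowest count behind any of these levels was 550.

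Per kb of exon, Met was the most abundant of the 3, at 66.9 CPM per kb in Sost-/- and 72.6 in SostPB/-. Il11ra1 followed at 20.1 and 16.2, and Prlr, with the longest exons, at 15.0 and 17.7. Met was above both other receptors in all 8 livers on this scale, from 43.9 to 81.8 CPM per kb. Prlr (9.98 to 21.5) and Il11ra1 (12.5 to 23.1) overlapped, and their order differed between livers. By mean level Met ranked 73, Il11ra1 179 and Prlr 190 among 373 protein-coding tested rows of the stretches, whose median was 17.1 CPM per kb. The whole exon length of the annotation was used, so a gene read mostly as a short form is understated on this scale. Which forms of Prlr were made was not analysed here.

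Which liver was high differed between receptors, so their ratios were compared within each mouse. CPM of Met over CPM of Prlr was 2.65, 1.67, 2.2 and 2.67 in Sost-/- livers 1 to 4 and 2.44, 1.9, 2.17 and 1.86 in SostPB/- livers 1 to 4. The ratio overlapped between genotypes, at 2.3 ± 0.471 and 2.09 ± 0.269 (SD, n = 4 each, exact two-sided permutation p = 0.6). Prlr over Il11ra1 was 2.69, 3.66, 1.48 and 2.61 against 2.0, 4.34, 4.53 and 4.99. In 3 SostPB/- livers this ratio was above every Sost-/- liver, and in SostPB/- liver 1 it was not. Means were 2.61 ± 0.892 and 3.97 ± 1.34 (exact two-sided permutation p = 0.229). Met over Il11ra1 gave the same picture, at 7.13, 6.09, 3.26 and 6.98 against 4.87, 8.25, 9.82 and 9.28, with means of 5.86 ± 1.8 and 8.05 ± 2.22 (exact two-sided permutation p = 0.257). The exact tests were run on the log2 of the ratios, while means and SDs are of the ratios themselves. Adjusted over the 3 ratios, the exact permutation p-values were 0.6, 0.386 and 0.386.

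Across the 8 livers Met and Prlr were both lowest in Sost-/- liver 3 and SostPB/- liver 1, and were less alike in the other livers. Pearson's r of their log2 levels was 0.78 (exact permutation p = 0.0296, adjusted over the 3 pairs 0.0887) and Spearman's rho 0.667 (exact p = 0.0831, adjusted 0.197). Il11ra1 went the other way, with r = -0.544 against Met (exact permutation p = 0.118, adjusted 0.121) and r = -0.582 against Prlr (exact permutation p = 0.121, adjusted 0.121). Spearman's rho was -0.524 for both (exact permutation p = 0.197, adjusted 0.197). None passed after adjustment, and all 3 rested on the same livers. Without Sost-/- liver 3 and SostPB/- liver 1, the farthest from the median of Met and of Prlr, r over 6 livers was 0.122 for Met with Prlr, 0.223 for Met with Il11ra1 and -0.0974 for Prlr with Il11ra1. Relations within a genotype, over 4 livers, were not tested.

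**Figure D3:**
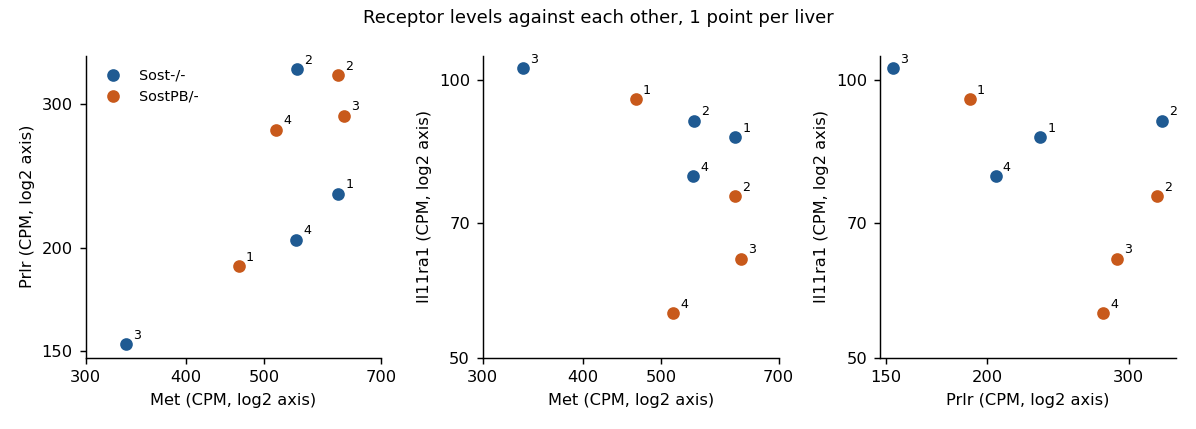
Level of each receptor against another in CPM (log2 axes), 1 point per liver, numbered by replicate and coloured by genotype. Sost-/- liver 3 and SostPB/- liver 1 are the livers with low Met, low Prlr and high Il11ra1, and without them r was 0.122 for Met with Prlr.

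These 2 livers also stood apart by exon length, taken as the whole exon length of the annotation. Protein-coding genes of the stretches with a mean above 5 CPM were split at their median exon length of 4.665 kb into 166 longer and 166 shorter genes. In Sost-/- liver 3 the median log2 deviation from each gene's mean was -0.107 in longer genes and 0.0606 in shorter ones. SostPB/- liver 1 had -0.0813 and 0.0278. SostPB/- liver 3 showed the opposite, 0.0989 and 0.011. In the other 5 livers both medians lay between -0.0399 and 0.0646. Met (7.679 kb) and Prlr (15.34 kb) are longer than this median. Il11ra1, at 4.471 kb, lies just below it, close to the split. Their own deviations were larger than these medians, at -0.64 for Met, -0.66 for Prlr and 0.37 for Il11ra1 in Sost-/- liver 3, and -0.18, -0.35 and 0.26 in SostPB/- liver 1. Whether exon length takes part in the levels of the receptors was not tested. Without both livers, a choice made after seeing the data, the log2 fold change was 0.04 for Met, 0.22 for Prlr and -0.39 for Il11ra1, the last with an edgeR unadjusted p of 0.0477 and an adjusted p of 0.88.

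**Figure D4:**
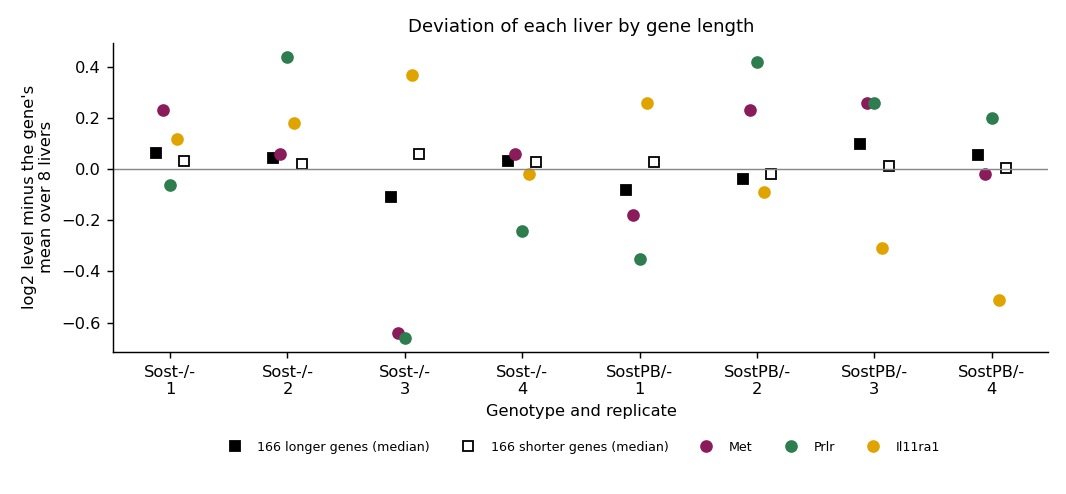
Deviation of each liver from the mean over 8 livers on the log2 scale, as the median of 166 longer and 166 shorter protein-coding genes (squares) and for each receptor (circles). Sost-/- liver 3 has Met and Prlr at -0.64 and -0.66, and its longer genes at a median of -0.107.

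The genes most like each receptor across the 8 livers were sought among 332 protein-coding rows of the stretches with a mean of at least 50 counts. For Met they were Tmem245, a membrane protein gene (r = 0.957), Aco1, which encodes cytosolic aconitase and iron regulatory protein (r = 0.918), and Otud6b, a deubiquitinase gene (r = 0.917). For Prlr they were Aco1 again (r = 0.879), the nuclear pore gene Nup155 (r = 0.868) and Mob3b (r = 0.84). For Il11ra1 they were the zinc finger gene Zfp622 (r = 0.886), the ribonuclease P subunit gene Rpp25l (r = 0.869), which lies inside the Il11ra1 gene span, and Rusc2 (r = 0.837). These values were picked as the highest of 332 over 8 libraries that share their scaling, and are a description. Aco1 was at 508 to 796 CPM with a log2 fold change of 0.07 (SE 0.16), and Tmem245 at 317 to 639 CPM with 0.17 (SE 0.20). These genes were both long and short. Exon lengths were 17.09 kb for Tmem245, 4.496 kb for Aco1 and 3.387 kb for Otud6b. Nup155 had 11.951 kb and Mob3b 6.2 kb. Of those most like Il11ra1, Zfp622 had 7.13 kb, Rpp25l 0.856 kb and Rusc2 7.923 kb.

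Promoters are shown because Met and Prlr were low in the same livers. RefSeq (GRCm38.p6) gave 6 windows of 300 bases for the 3 genes, from 250 bases before a start site to 50 after. Each was searched on both strands for the AP-1 site TGACTCA, the STAT site TTCNNNGAA, the GC box GGGCGG and the TATA box TATAAA, which occur in 5.2%, 8.3%, 35.7% and 13.6% of 32851 such windows. The Met window held 1 AP-1 match, 54 bases before its start site, and 3 GC boxes. Of 3 Prlr windows, the first held none of the 4 motifs, the second 1 STAT match and the last 1 AP-1 match. Both Il11ra1 windows held 1 GC box. An AP-1 match was thus found in the Met window and in the last Prlr window, a motif found in 5.2% of all windows. As the first Prlr window held none, no motif could be shared with every window of Prlr. Which start sites were used in these livers was not tested. A match is a description of letters and not a site. The parts outside annotated exons are printed where they hold a match, in capitals, 5′ to 3′ on the plus strand.
Met, chr6:17463707-17463799: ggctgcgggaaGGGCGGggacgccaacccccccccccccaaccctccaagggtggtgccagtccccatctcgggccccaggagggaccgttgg
Prlr second start, chr15:10223656-10223905: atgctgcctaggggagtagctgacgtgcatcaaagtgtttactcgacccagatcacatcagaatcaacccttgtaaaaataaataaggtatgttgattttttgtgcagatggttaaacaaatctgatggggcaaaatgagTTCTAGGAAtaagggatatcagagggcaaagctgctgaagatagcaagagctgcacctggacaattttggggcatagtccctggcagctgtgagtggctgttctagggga
Prlr last start, chr15:10293401-10293650: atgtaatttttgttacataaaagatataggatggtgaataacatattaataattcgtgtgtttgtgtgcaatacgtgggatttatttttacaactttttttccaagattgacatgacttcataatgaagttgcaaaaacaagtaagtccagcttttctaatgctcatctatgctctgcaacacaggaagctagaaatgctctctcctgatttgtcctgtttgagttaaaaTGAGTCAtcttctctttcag
Il11ra1 second start, chr4:41762060-41762308: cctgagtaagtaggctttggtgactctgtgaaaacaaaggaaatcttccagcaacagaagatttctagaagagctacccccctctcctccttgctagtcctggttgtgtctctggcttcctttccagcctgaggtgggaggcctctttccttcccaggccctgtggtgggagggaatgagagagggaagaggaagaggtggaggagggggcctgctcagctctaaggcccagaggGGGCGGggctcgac

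Other receptors on the stretches did not pass either. Of 23 receptor genes listed, 22 had a row there and 14 were tested, with 0 passing in either direction, 4 log2 fold changes above 0 and 10 below, and a median of -0.1 beside -0.01 over all rows. At an unadjusted edgeR p under 0.05 there was 1, Cntfr, a share near the 6.45% of all rows and 8.24% of rows on the stretches. It encodes the alpha subunit for ciliary neurotrophic factor, a receptor of the same family as Il11ra1 that also signals with gp130, and lies 2.9 kb from the Il11ra1 gene span. Cntfr was at 10.5, 18.1, 15.2 and 10.2 CPM in Sost-/- livers 1 to 4 and 11.7, 5.48, 6.17 and 8.23 CPM in SostPB/- livers 1 to 4. As with Il11ra1, SostPB/- livers 2, 3 and 4 were below every Sost-/- liver and SostPB/- liver 1 was not. Its log2 fold change was -0.77 (SE 0.30, edgeR unadjusted p = 0.0286, adjusted p = 0.728).

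Among cytokine receptors, Il7r, the alpha subunit for interleukin 7, ran from 53.0 to 88.1 CPM in Sost-/- and from 39.9 to 65.7 CPM in SostPB/-, a log2 fold change of -0.38 (SE 0.21, edgeR adjusted p = 0.884). Growth factor and guanylyl cyclase receptors overlapped between genotypes. Tgfbr1, the type I receptor for TGF-beta, had means of 212 ± 22.8 and 191 ± 11.9 CPM (SD, n = 4 each), and Npr2, the receptor for C-type natriuretic peptide, 252 ± 37.9 and 238 ± 29.97 CPM. Sdc2, a heparan sulfate proteoglycan and coreceptor, had 610.3 ± 125 and 609.8 ± 94.1 CPM. Smo, of hedgehog signalling, had 30.3 ± 10.6 and 31.3 ± 8.61 CPM. Calcr, the calcitonin receptor, was low, at 4.48 ± 0.3 and 5.88 ± 2.03 CPM. Of the listed receptors on the stretches, 8 were too low to test, 4 of them at 0 in all livers.

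Of 14 ligand genes, 13 had a row on the stretches and 6 were tested, with 0 passing, 2 log2 fold changes above 0, 4 below and a median of -0.12. Of these 6, Sema5a, a membrane-bound semaphorin, had an unadjusted edgeR p under 0.05, as did 6.45% of all rows and 8.24% of rows on the stretches. It was at 8.07, 10.8, 9.4 and 5.16 CPM in Sost-/- livers and 4.17, 2.74, 5.58 and 3.31 CPM in SostPB/- livers 1 to 4. The groups overlapped by 1 liver each, and the log2 fold change was -1.08 (SE 0.32, edgeR unadjusted p = 0.00698, adjusted p = 0.654). Fam3c, a secreted factor, had means of 167 ± 10.7 and 185 ± 9.43 CPM, and Ccl27a, the chemokine gene beside Il11ra1, 16.6 ± 3.21 and 20.3 ± 3.17 CPM (SD, n = 4 each).

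Signalling genes were tested in 11 of 14 cases, and 11 had a row on the stretches. None passed, 6 log2 fold changes were above 0 and 5 below, and the median was 0.01. The 1 of 11 with an unadjusted edgeR p under 0.05, beside the same 6.45% and 8.24%, was Shb, an SH2 adaptor that works downstream of receptor tyrosine kinases. It was at 111, 145, 107 and 112 CPM in Sost-/- livers 1 to 4. SostPB/- livers 1 to 4 had 101, 98.7, 48.5 and 58.2 CPM, each below every Sost-/- liver, in the way that 219 of 10020 rows (2.19%) of the table were. The log2 fold change was -0.63 (SE 0.25, edgeR unadjusted p = 0.0274, adjusted p = 0.721, exact two-sided permutation p = 0.0286, the smallest possible). Wasl, an actin regulator, at 599 to 807 and 654 to 789.5 CPM, and Map3k7, the kinase TAK1, at 180 to 223 and 178 to 230.1 CPM, overlapped.

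**Figure D5:**
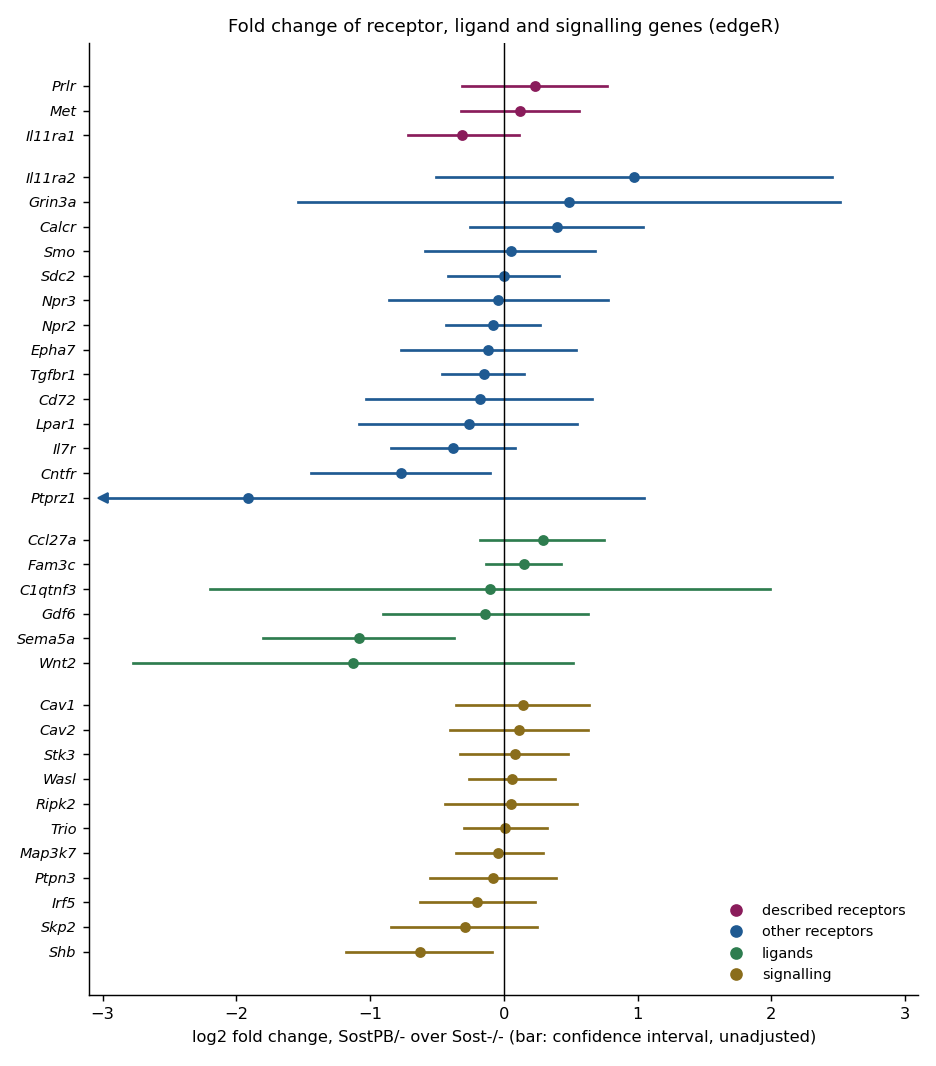
Log2 fold change of SostPB/- over Sost-/- with its unadjusted 95% interval (edgeR) for Met, Prlr and Il11ra1 and for the tested receptor, ligand and signalling genes of the stretches. The intervals of Met, Prlr and Il11ra1 all cross 0, and those of Cntfr, Sema5a and Shb do not.

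The tissue label was checked with marker genes on the stretches. The summed level of 9 hepatocyte markers, such as Cyp7a1, whose enzyme starts the making of bile acids, ran from 5705 to 6623 CPM in Sost-/- and from 5732 to 6617 in SostPB/-, and none of the 9 was at 0. These ranges nearly coincided, although bulk RNA does not show which cells held Met or Prlr. Sums over 7 stellate cell and fibroblast markers were 140.3 to 235 against 140.5 to 206 CPM, and over 3 macrophage markers 95.0 to 129.9 against 92.5 to 118. Sums over 4 endothelial markers were 1108 to 1638 against 1274 to 1674 CPM. Most of each came from Tspan12 (means of 813 and 851 CPM) and Sdc2 (610.3 and 609.8 CPM). They say little of Cav1 (10.3 and 11.3 CPM) or Wnt2 (8.95 ± 2.79 and 4.08 ± 3.11 CPM, SD, n = 4 each). Wnt2 had a log2 fold change of -1.13 (SE 0.74, edgeR adjusted p = 0.924). The 5 lymphocyte markers summed to 60.4 to 104 against 52.8 to 75.7 CPM and the 3 cholangiocyte markers to 14.0 to 19.8 against 7.5 to 18.0. All of these ranges overlapped, and no list had a marker at 0 in every liver. Most of the lymphocyte sum came from Il7r (53.0 to 88.1 against 39.9 to 65.7 CPM). Over the livers of each genotype, most of the cholangiocyte sum came from Tspan33, the only 1 of its 3 markers that was tested. Both sums thus say little of the other markers on their lists. Markers within a list did not all go the same way, which a sum hides. Among the genes listed as macrophage markers, Laptm4b did not pass but was higher in SostPB/- (41.2 to 43.9 beside 33.1 to 40.8 CPM). With means of 37.6 and 43.0 CPM it was a large part of their sum. Its groups did not overlap, as in 4.12% of rows on the stretches. Irf5 and Tfec had log2 fold changes of -0.20 and -0.25. Of 6 tested stellate cell and fibroblast markers, 5 log2 fold changes were below 0. The 1 above 0 was Col1a2, the most abundant (means of 108 and 127 CPM). Which cells held the genes of each list in these livers, and the part of other cells in the receptor levels, were not tested.

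Library totals ran from 9919069 to 14932773 counts in Sost-/- and from 9578086 to 14613316 in SostPB/- (exact two-sided permutation p = 0.657). Mitochondrial rows took 47.4% to 59.19% and 54.74% to 64.3% of the counts (exact two-sided permutation p = 0.114). The number of rows above 0 was 15436 to 16629 in Sost-/- and 14459 to 14762 in SostPB/-, with no overlap (exact two-sided permutation p = 0.0286). When libraries were set to their totals alone, with no scaling factors, the median log2 fold change of all rows moved by -0.196, and Met stood at -0.07, Prlr at 0.03 and Il11ra1 at -0.49, none of which passed.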

How the data were processed

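Liver poly-A RNA of 8 mice was sequenced. RNAiso Plus extraction and TIANSeq capture and library kits were used, per the labels' protocols. HISAT2, StringTie, DESeq2 and the build mm10 are named in the submitters' processing notes. Versions, annotation release, read length and strand setting: not given in the sources used here. Sample titles gave groups and replicate numbers.

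The authors deposited whole-number counts for 55416 rows, which all tests used. They also deposited a normalized signal for 22883 rows. Each value was a count divided by the library's size factor (0.7824 to 1.239), since 100% came back whole within 0.001 reads. A test of those recovered reads called 0 genes and gave the same receptor fold changes as the main test, so it is not a separate check. Positions were taken by gene ID from GENCODE M21, which held 52083 of the IDs, and names were read only on stretches of chromosomes 4, 6 and 15 where counts fitted the annotated exons.

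The whole count table was tested by edgeR 4.0.16 (R 4.3.3), with filterByExpr by group, TMM factors and the quasi-likelihood fit and test (glmQLFit, glmQLFTest) of SostPB/- over Sost-/- on the 10020 rows kept. Adjustment was by Benjamini-Hochberg, with a threshold of 0.05. The SE is the log2 fold change divided by the square root of F. Exact permutation tests used scipy 1.17.1, and correlations used log2(CPM + 0.5). The script was tested on simulated counts. Alternatives were DESeq2 1.42.0, limma 3.58.1 with voom, other scalings and filters, a block on the replicate number, and fits with each library left out in turn. The following were chosen after seeing the data: the recovered reads, the 6 shallower libraries alone, leaving out both livers lowest in longer genes, and adding the copies of Il11ra1. The rule for named genes took the receptors and copies, neighbours within 250 kb, the 3 most similar rows, and tested members of fixed receptor, ligand and signalling lists, apart from 1 neighbour that is not reported here. The receptors and all lists were chosen with earlier results of these data known.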

Additional observations from a re-analysis of the deposited data

Results flagged for a closer look

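Within a genotype, a liver was set against the other 3 by its gap to the nearest of them over the whole range, in 74 sets of 4 values, and about 1 in 20 such sets is picked out by chance. None of the levels of Met, Prlr or Il11ra1 was picked out. Sost-/- liver 3, the liver with the lowest Met and Prlr, was far from the others in 4 genes: Sdc2, a coreceptor, at 424 CPM beside 659 to 696, Map3k7 at 180 beside 217 to 223, Npr2 at 308 beside 229 to 239.9, and Lpar1, a lysophosphatidic acid receptor, at 29.97 beside 12.9 to 15.3. Sost-/- liver 2 was far from the others in Shb, at 145 CPM beside 107 to 112.

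Among SostPB/- livers, number 3 stood apart in Npr2, at 282 CPM beside 219.8 to 229.8. SostPB/- liver 2 stood apart in the growth factor gene Gdf6, at 9.77 CPM beside 4.42 to 4.72, and in the receptor phosphatase gene Ptprz1, at 1.11 CPM beside 0 to 0.102. By depth, Sost-/- liver 1 had 14932773 counts beside 9919069 to 10554376, and SostPB/- liver 2 had 14613316 beside 9578086 to 10412498. SostPB/- liver 4 had 14459 rows above 0 beside 14735 to 14762.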

How the results depend on the processing

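Over 21 alternatives the log2 fold change ran from -0.07 to 0.22 for Met, from 0.03 to 0.46 for Prlr and from -0.49 to -0.20 for Il11ra1, with adjusted p of at least 0.903, 0.769 and 0.578. Leaving out 1 library gave -0.04 to 0.22, 0.08 to 0.46 and -0.47 to -0.20. Met turned to -0.07 with library totals alone and to -0.04 without Sost-/- liver 3. The count of rows past adjusted p 0.05, 0 as reported, was 2 with no filter on low counts, 1 with a minimum of 50 counts in 4 libraries, 53 with DESeq2, 1 with limma-voom, 3 in the 6 shallower libraries and 0 to 4 without 1 library. The cause was not tested. Rows with an unadjusted p under 0.05 numbered 49 on the stretches and the mitochondrial genome alone, where fewer rows were tested, and 1457 with no filter, beside 646. Without 1 library they numbered 474 to 770. The lists of receptors, ligands and signalling genes stayed at 0 calls in all 21. Not all of the 21 are separate checks. The recovered reads gave the same receptor fold changes as the main fit, and adding the copies of Il11ra1 left those of Met and Prlr unchanged. The correlation of Met with Il11ra1 turned to 0.223 without the 2 farthest livers.

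Same-numbered livers did not deviate together (r from -0.0382 to 0.0405 over rows), so the numbers were not taken as pairs. With the replicate number as a block the log2 fold changes were 0.14, 0.26 and -0.33 (edgeR adjusted p = 0.986, 0.979 and 0.979), and 0 rows passed. The lowest count of a receptor in any library was 550, and how far depth limits the intervals was not tested.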

Other observations

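Among 9 tested hepatocyte markers on the stretches, Aass and Grhpr had an unadjusted edgeR p under 0.05, as did 8.24% of rows on the stretches, and did not pass after adjustment. Both are named here after their values were seen. Aass, a mitochondrial enzyme of lysine breakdown, was at 1381, 1164, 1021 and 1249 CPM in Sost-/- livers 1 to 4 and at 908, 852, 935 and 963 CPM in SostPB/- livers 1 to 4, so the groups did not overlap, as in 19 of 461 rows (4.12%) on the stretches and, with SostPB/- lower, in 2.19% of all rows. Its log2 fold change was -0.40 (SE 0.14, edgeR unadjusted p = 0.0155, adjusted p = 0.687). Grhpr, an enzyme that reduces glyoxylate, was at 269, 402, 303 and 392 CPM against 311, 229, 225 and 217 CPM, with SostPB/- liver 1 inside the range of Sost-/-. Its log2 fold change was -0.48 (SE 0.19, edgeR unadjusted p = 0.0266, adjusted p = 0.721). Of the 9 markers, 0 passed, 6 log2 fold changes were above 0 and 3 below, and the median was 0.01.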
